A study of Ovis aries with 27 samples.

Results

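The heart septum of sheep fetuses whose mothers received cortisol was compared between 140 d and 130 d of gestation. The members were the 7 arrays titled as cortisol at 140 d and the 6 titled as cortisol at 130 d, 13 of the 27 arrays in the series. Each array holds RNA from 1 fetus of Ovis aries, taken from the septum, the muscular wall that divides left from right ventricle, and labelled with Cy3. Breed, sex and the age of the ewes are not given in the sources used here.

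Cortisol was infused without pause into all 13 ewes at 1 mg/kg/d, so exposure was through the mother and placenta. The younger fetuses were collected between 129 d and 131 d after about 10 d of infusion that began near 120 d. The older fetuses were collected between 139 d and 144 d after about 25 d of infusion that began near 115 d. Another label gives a start near 115 d for every ewe. The ages were separate cohorts, so gestational age cannot be told apart from cohort or from the number of days infused. The other arm of the study, 6 fetuses at 130 d and 8 at 140 d, received vehicle and is used here to test whether the age change differed between arms. Fetuses were singletons, apart from 1 set of twins among the controls at 140 d. In whole tissue, fewer cells of a type and less RNA per cell cannot be told apart.

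In late gestation the fetal heart slows its growth by cell division, builds up mitochondria and contractile protein, and prepares to burn fatty acids after birth in place of glucose and lactate. Cortisol of the fetus rises before term and acts through the glucocorticoid receptor NR3C1, a ligand-activated transcription factor. The enzyme HSD11B1 regenerates active glucocorticoid from its inactive form and HSD11B2 inactivates it.

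Each probe of the array is 60 bases long and was read as 1 level per fetus. The probes below carry the main results: a DNA synthesis gene and cyclin-kinase genes that fell, the 3 adenine nucleotide carriers, of which 2 rose, detoxification, signalling and lipid droplet genes that rose, and the unnamed probes with the largest rise and fall. They are given 5′ to 3′ as deposited, and the files give no genome position for them.
TYMS: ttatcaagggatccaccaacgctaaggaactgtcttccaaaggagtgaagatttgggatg
CCNA2: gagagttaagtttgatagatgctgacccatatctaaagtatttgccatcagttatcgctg
CDK1: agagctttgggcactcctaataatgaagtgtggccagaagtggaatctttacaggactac
SLC25A4: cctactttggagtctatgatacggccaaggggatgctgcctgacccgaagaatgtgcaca
SLC25A5: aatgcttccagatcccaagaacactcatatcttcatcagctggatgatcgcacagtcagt
SLC25A6: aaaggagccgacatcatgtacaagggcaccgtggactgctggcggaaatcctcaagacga
GSTM3: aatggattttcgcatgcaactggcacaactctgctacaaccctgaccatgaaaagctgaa
NFKBIA: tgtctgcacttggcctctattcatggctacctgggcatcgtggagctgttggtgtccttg
PLIN5: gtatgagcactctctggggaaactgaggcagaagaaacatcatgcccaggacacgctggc
A_70_P030641: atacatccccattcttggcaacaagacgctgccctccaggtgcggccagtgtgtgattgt
A_70_P051821: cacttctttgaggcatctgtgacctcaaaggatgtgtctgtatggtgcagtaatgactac
No run of bases longer than 6 was shared between any of the carrier probes SLC25A4, SLC25A5 and SLC25A6. Whether a probe also reads the transcript of another carrier was not tested.

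Intensities were lower at 140 d. The 75th percentile of intensity ran from 977 to 1195 at 130 d and from 602 to 1079 at 140 d. Between 79.3% and 87.0% of spots were well above background on the younger arrays and between 78.3% and 80.7% on the older. One array stood apart. Replicate 4 at 140 d had the lowest 75th percentile, and its median absolute difference from the other 6 older arrays was 0.47 on the log2 scale, against 0.18 to 0.24 for each of those 6. Of the 12769 probes tested it was the highest of the 13 arrays for 2894 and the lowest for 3150. On that array the early-response genes FOS and JUNB read 4.07 and 0.62, against highest levels of 0.06 and -2.36 on the other older arrays. The acute-phase gene SAA3 read 3.86 there and the prostaglandin synthase PTGS2 0.52, above every other array of the arm. These 4 genes were picked after their values were seen. Counts of calls, and changes of genes for which that array decided the call, are given with and without it. The cardiomyocyte markers MYH7, a myosin heavy chain, and MB, myoglobin, were well above background on all 13 arrays, as were all 5 endothelial and all 6 fibroblast markers. A summed level is the log2 of a list's intensities added up after scaling. Replicate 4 had the lowest summed level of the cardiomyocyte markers in the arm (7.54, against 8.18 to 8.85 on the other older arrays), and the highest of the endothelial (2.84), fibroblast (8.40), myeloid and pan-leukocyte (2.82) and neutrophil granule lists (3.86). The part of tissue composition in the results was not tested.

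A level here is the log2 intensity of a probe minus the log2 of its array's 75th percentile, and a change is the mean level at 140 d minus that at 130 d. Levels of different probes are not comparable. Of 12769 probes, 1718 (13.5%) passed limma's test at an adjusted p under 0.05, 631 higher (4.94%) and 1087 lower (8.51%) at 140 d. A named gene is counted by its probe with the highest mean, and 41 of 402 genes with several probes had some but not all called. Among 840 named genes 124 (14.8%) passed, of which 62 rose (7.38%) and 62 fell (7.38%). The levels of the age groups did not overlap for 599 probes (4.69%) and for 36 named genes (4.29%). The median change was -0.04 over all probes and -0.01 over the named genes. Scaling by the median put 1168 of 1831 called probes higher (63.8%), against 36.7% here, so the balance of directions depends on the scaling. Dim probes carried many of the falls. The 4257 dimmest probes held 411 of the called falls and 83 of the called rises, while the 4256 brightest held 245 and 384. Normexp background correction was run on the mean spot signal and its background, not on the processed signal, with an added offset of 50. It shrinks differences between dim spots, and with it 339 probes passed (2.65%), 177 of them higher. The part of the offset in that loss of calls was not tested. With slide as a fixed block 1897 probes passed. Within the 3 single slides that held both ages, with 3 or 4 of the 13 arrays each, 1, 0 and 29 passed.

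Of the 12 leading named rises, the 5 whose age groups did not overlap are given first. GSTM3, a glutathione transferase that conjugates reactive compounds, ran from -3.42 through a median of -1.78 to -0.95 at 130 d and from -0.90 through 0.25 to 0.63 at 140 d, with no overlap. It rose by 2.01 ± 0.40 (SE, adjusted p = 0.00188), and its second probe also passed. PDXK, the kinase that makes active vitamin B6, ran from -0.40 through a median of -0.19 to -0.001 at 130 d and from 0.47 through 0.95 to 1.88 at 140 d, again without overlap. Its rise was 1.24 ± 0.18 (SE, adjusted p = 0.000192). SLC2A4, the insulin-responsive glucose transporter of muscle, ran from 2.97 through a median of 3.31 to 3.56 at 130 d and from 3.81 through 4.37 to 5.07 at 140 d, and every older fetus lay above every younger one. The change was 1.09 ± 0.19 (SE, adjusted p = 0.000767). For NFKBIA, the inhibitor that holds NF-kappa-B in the cytoplasm, levels ran from 0.50 through a median of 1.13 to 1.24 at 130 d and from 1.70 through 1.98 to 3.96 at 140 d. The groups did not overlap and the rise was 1.30 ± 0.30 (SE, adjusted p = 0.0049). It was 1.03 without replicate 4 at 140 d, whose level of 3.96 was the highest. BCL2L1, which restrains apoptosis, also had groups that lay apart, with levels of -3.93 to -3.06 at 130 d and -2.91 to -2.25 at 140 d. It rose by 0.95 ± 0.18 (SE, adjusted p = 0.00147), but by 0.48 (adjusted p = 0.533) with normexp.

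The remaining leading rises had groups that overlapped. ALDH1A1, which makes retinoic acid, rose by 1.40 ± 0.38 (SE, adjusted p = 0.0166) and was 1.14 without the 130 d replicate 1 (adjusted p = 0.0534). FABP5, a carrier of fatty acids in the cytoplasm, rose by 1.39 ± 0.40 (SE, adjusted p = 0.023). Its younger levels spanned only 2.23 to 2.72, while the older spanned 2.30 to 5.87, with replicates 4, 6 and 2 at the top. Its change was 1.17 without the 140 d replicate 6 (adjusted p = 0.0552) and 1.07 without the 140 d replicate 4 (adjusted p = 0.0359). TUBA4A, an alpha-tubulin, rose by 1.33 ± 0.39 (SE, adjusted p = 0.0243). Its lowest level of the arm, -1.04, was that of replicate 4, and without it the rise was 1.70. It was 1.12 without the 140 d replicate 2 (adjusted p = 0.0568), 1.18 without the 140 d replicate 6 (adjusted p = 0.0557) and 1.26 without the 130 d replicate 6 (adjusted p = 0.0553). CEBPB, a transcription factor induced by glucocorticoids, rose by 1.09 ± 0.31 (SE, adjusted p = 0.0189), and PLIN5, which coats lipid droplets beside mitochondria, by 1.08 ± 0.28 (SE, adjusted p = 0.0107). PRSS23, a serine protease, rose by 0.97 ± 0.27 (SE, adjusted p = 0.0169), and by 0.69 without replicate 4, whose level of 2.24 stood far above the rest. HSD11B1 rose by 0.94 ± 0.26 (SE, adjusted p = 0.0167). Of the 12 leading rises, GSTM3, NFKBIA, PDXK, SLC2A4 and PRSS23 kept their calls with normexp.

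**Figure D1:**
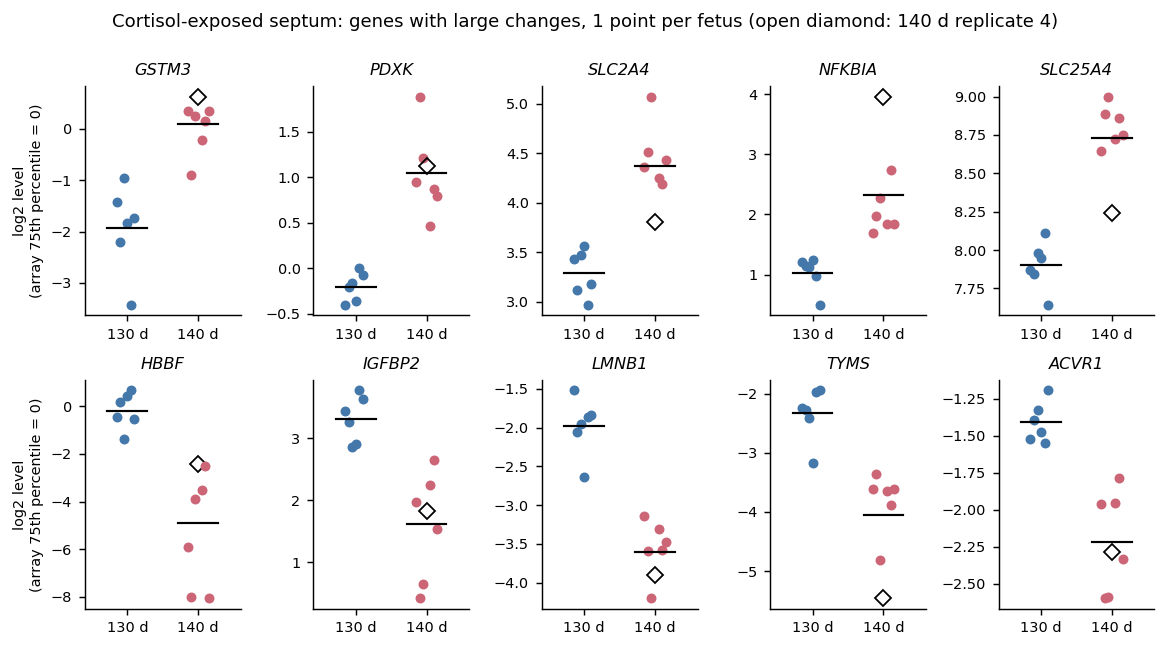
Levels of 10 genes with large changes in cortisol-exposed septum at 130 d (n = 6) and 140 d (n = 7), as log2 intensity relative to the array's 75th percentile; each point is 1 fetus, bars are group means, and the open diamond is 140 d replicate 4. All 10 are among the 36 named genes (4.29% of 840) whose age groups did not overlap. For example, SLC2A4 lies at 3.81 or more at 140 d against at most 3.56 at 130 d. Some genes with larger changes overlapped and are not drawn, such as NOS2 (-2.35) and FABP5 (1.39).

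The leading falls were larger on the log2 scale than the leading rises, and several came from probes that were below background on some older arrays. The probe described in the files as the fetal beta subunit of hemoglobin (HBBF) ran from -1.38 through a median of -0.14 to 0.66 at 130 d and from -8.06 through -3.88 to -2.42 at 140 d, with no overlap. It fell by 4.72 ± 0.84 (SE, adjusted p = 0.000889) and was well above background on 5 of 7 older arrays, so the size is not an exact fold. IGFBP2, a binding protein of insulin-like growth factors, ran from 2.87 through a median of 3.35 to 3.77 at 130 d and from 0.42 through 1.83 to 2.65 at 140 d, again apart. IGFBP2 fell by 1.70 ± 0.36 (SE, adjusted p = 0.00296), and all 13 arrays read it above background. ASPM, which organises the mitotic spindle, ran from -4.26 through a median of -3.12 to -2.50 at 130 d and from -8.35 through -5.25 to -4.33 at 140 d, and no older fetus reached the younger range. It fell by 2.76 ± 0.67 (SE, adjusted p = 0.0081) and was well above background on 4 of 7 older arrays, so this size is not an exact fold. With normexp ASPM was -0.94 (adjusted p = 0.178). TYMS, which makes thymidylate for DNA, ran from -3.17 through a median of -2.25 to -1.94 at 130 d and from -5.46 through -3.65 to -3.36 at 140 d, and the groups did not overlap. The fall was 1.72 ± 0.39 (SE, adjusted p = 0.00453).

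Groups overlapped for the other leading falls. NOS2, the inducible nitric oxide synthase, fell by 2.35 ± 0.60 (SE, adjusted p = 0.0102) and was above background on 5 of 7 older arrays. GRIA1, a glutamate receptor subunit, fell by 2.16 ± 0.54 (SE, adjusted p = 0.00885) and was above background on 2 of 7. The sizes for NOS2 and GRIA1 are therefore not exact folds. With normexp they were -0.96 (adjusted p = 0.143) and -0.54 (adjusted p = 0.636). CCNA2, a cyclin of DNA replication, fell by 1.89 ± 0.49 (SE, adjusted p = 0.0112), and CDK1, the kinase that drives entry into mitosis, by 1.68 ± 0.49 (SE, adjusted p = 0.0243). CDK1 was -1.48 without the 140 d replicate 3 (adjusted p = 0.058), -1.54 without the 130 d replicate 6 (adjusted p = 0.06) and -1.56 without the 130 d replicate 5 (adjusted p = 0.0549). INHBA, the subunit of activin A, fell by 1.84 ± 0.53 (SE, adjusted p = 0.0208), and its second probe also passed. It was -1.57 without the 140 d replicate 3 (adjusted p = 0.0531). PMCH, the precursor of a brain peptide hormone, fell by 1.88 ± 0.58 (SE, adjusted p = 0.0322) and lost its call in 7 of 13 fits that left out 1 array (-2.15 to -1.44). Of the 12 leading falls, HBBF and IGFBP2 kept their calls with normexp.

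For some falls only a bound could be given, since no older array was well above background. IL1A, an inflammatory cytokine, was above background on 5 of 6 younger and 0 of 7 older arrays and was at least 1.51-fold lower (adjusted p = 0.00382). ALB, serum albumin, was above background on 4 of 6 and 0 of 7 and at least 2.59-fold lower (adjusted p = 0.0397). Its younger level of -0.24 on replicate 4 stood far above the next, -5.03, and raised the younger mean of -4.72 behind the bound. The bound was not computed without that array. ALB was -1.18 without the 130 d replicate 4 (adjusted p = 0.0772) and lost its call in 7 of 13 fits that left out 1 array. LEF1, a transcription factor of the Wnt pathway, was above background on 5 of 6 and 0 of 7 and was at least 1.45-fold lower (adjusted p = 0.00407). These bounds set the mean of the brighter group against the lowest signal that counted as above background on each dim array. The brighter means of IL1A, ALB and LEF1 include younger arrays that were not well above background, so these bounds are approximate. Each adjusted p is that of limma's test of the measured change and does not test the bound. With normexp IL1A (-0.25), ALB (-0.78) and LEF1 (-0.20) did not pass.

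Most probes have no gene name here, and some changed more than any named gene that rose. Probe A_70_P030641 ran from -2.01 through a median of -1.77 to -1.27 at 130 d and from -0.88 through 3.32 to 6.15 at 140 d, without overlap. It rose by 4.20 ± 0.77 (SE, adjusted p = 0.00109). Probe A_70_P024246 rose by 3.38 ± 0.82 (SE, adjusted p = 0.00737), with older levels near 5.11, 4.66 and 4.55 on replicates 2, 4 and 6 and at most 0.98 on the other 4. Probe A_70_P051821 was above background on 6 of 6 younger and 0 of 7 older arrays and at least 2.88-fold lower. Its measured change passed limma's test (adjusted p = 0.000113), which does not test the bound. Probe A_70_P062936 fell by 2.86 ± 0.63 (SE, adjusted p = 0.00399) and was above background on 6 of 6 younger but 1 of 7 older arrays, so the size is not an exact fold.

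Leaving out replicate 4 at 140 d raised the count of probes that passed to 2418 (18.9%), 1088 higher (8.52%) and 1330 lower (10.4%). Of these, 1573 had also passed with all arrays in the same direction, which is 91.6% of the calls with all arrays and 65.1% of the calls without it. Named genes that passed went from 124 to 170 (20.2%), with 83 rises and 87 falls, and 114 were called the same way in both. Of the 12 leading rises 9 stayed among the leading 12, joined by SLC25A33 (1.05), a pyrimidine nucleotide carrier of mitochondria, PFKM (0.98), the phosphofructokinase of muscle, and SLC25A6 (0.94), an adenine nucleotide carrier. Of the 12 leading falls 9 also stayed, joined by LEF1, SLPI (-1.60), an inhibitor of leukocyte proteases, and LMNB1 (-1.57), a lamin of the nuclear envelope. PFKM read 0.21 on replicate 4, below every other array of the arm, and the next lowest older level was 1.77. LMNB1 levels ran from -2.64 through a median of -1.91 to -1.52 at 130 d and from -4.20 through -3.58 to -3.15 at 140 d, without overlap, and it fell by 1.62 ± 0.25 (SE, adjusted p = 0.000261) with all arrays. Calls lost without the array included those of GAPDH (0.41, adjusted p = 0.0573), TXNIP (0.71, adjusted p = 0.0504), MYC (0.50, adjusted p = 0.0818), MCL1 (0.37, adjusted p = 0.0502), HSP90AA1 (-0.29, adjusted p = 0.0681) and PMCH (-1.44, adjusted p = 0.0554).

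**Figure D2:**
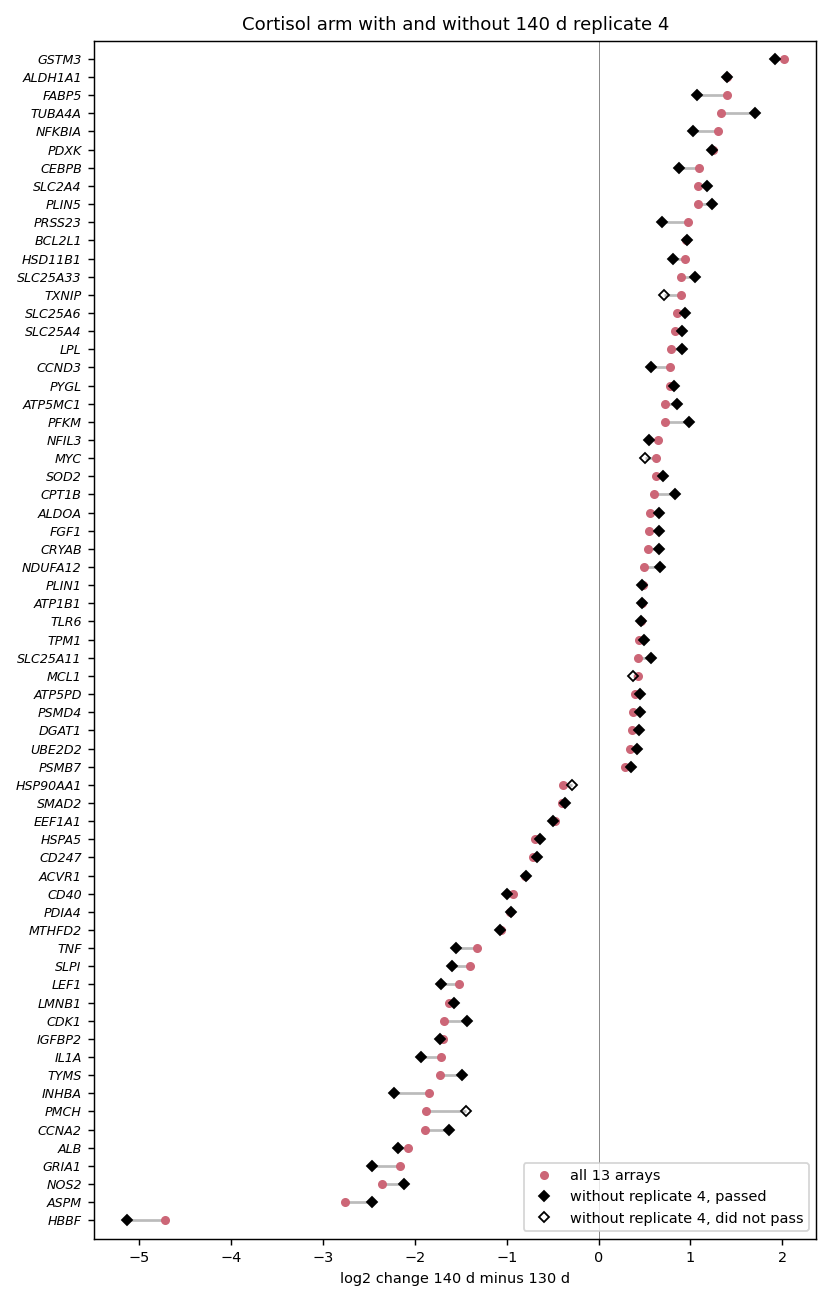
Log2 change from 130 d to 140 d in the cortisol arm for the 65 genes called, with all 13 arrays (circles) and without 140 d replicate 4 (diamonds, open where the adjusted p no longer passed). The sign is the same in both fits for all 65 genes, and 5 diamonds are open; HBBF moved from -4.72 to -5.13 and NFKBIA from 1.30 to 1.03.

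Most genes of the cell cycle and DNA synthesis fell, where 7.38% of all named genes did. Of the 14 cell cycle genes measured, 9 fell, 1 rose and 4 did not pass, with a median change of -0.54 against -0.01 over the named genes. The falls were in ASPM, CCNA2, CDK1 and TYMS, given above, and in CCNB1, the mitotic cyclin B1 (-1.57), AURKA, a mitotic kinase (-1.14, with 1 older spot left out as outlying), PCNA, the clamp of the DNA polymerases (-0.62), HMGB2, a chromatin protein (-0.47), and CDK4, a kinase of the G1 phase (-0.31). CDK4 ran from -0.21 through a median of -0.02 to 0.03 at 130 d and from -0.52 through -0.36 to -0.20 at 140 d, with its groups separated but for 1 younger fetus. Replicate 4 had the lowest older level of CCNA2, CCNB1, CDK1, TYMS, PCNA and CDK4, yet the count of falls was again 9 without it, with a median of -0.53. The exception was CCND3, a D-type cyclin that promotes entry into S phase, which rose by 0.78 ± 0.18 (SE, adjusted p = 0.00615), with a level of 0.79 on replicate 4 and at most -0.29 on the other older arrays. Without replicate 4 the rise of CCND3 was 0.57 (adjusted p = 0.0013). Scaling by the median left 6 falls. With normexp none of the 14 passed (0), although the median change was -0.48 and TYMS was -1.07 (adjusted p = 0.052).

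Energy metabolism genes rose in several of the lists and fell in none of them, where 7.38% of all named genes rose and 7.38% fell. Of 8 subunits of the respiratory chain and ATP synthase, 3 rose with a median change of 0.31. Without replicate 4, 6 rose, beside 83 of all 840 named genes. ATP5MC1, which belongs to the rotating ring of the ATP synthase, ran from 7.35 through a median of 7.63 to 7.72 at 130 d and from 7.57 through 8.39 to 8.64 at 140 d. It rose by 0.73 ± 0.15 (SE, adjusted p = 0.00255), and of its 3 other probes 1 also passed, while the remaining 2 gave -0.29 and -0.50 without passing. NDUFA12, a subunit of complex I, rose by 0.49 ± 0.16 (SE, adjusted p = 0.0341) and by 0.67 without replicate 4, which alone lay below the younger fetuses at 4.42. ATP5PD, in the stalk of the ATP synthase, rose by 0.40 ± 0.12 (SE, adjusted p = 0.0243). Replicate 4 lay at or near the bottom of the older group for all of these. SDHD, a subunit of complex II, passed on another probe (0.49, adjusted p = 0.0258) but not on its brightest. Of 13 fits that left out 1 array each, calls were lost for NDUFA12 in 10 (0.44 to 0.67) and ATP5PD in 2 (0.34 to 0.45).

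Among 10 mitochondrial carriers 4 rose, beside 7.38% of all named genes. SLC25A4 and SLC25A6, which exchange ATP for ADP across the inner membrane, rose by 0.83 ± 0.14 (SE, adjusted p = 0.000745) and 0.85 ± 0.14 (SE, adjusted p = 0.00053), with no overlap of ages for either. SLC25A4 ran from 7.64 through a median of 7.91 to 8.11 at 130 d and from 8.24 through 8.75 to 9.0 at 140 d. The third adenine nucleotide carrier, SLC25A5, differed by -0.17 ± 0.15 (adjusted p = 0.516) and ran from 1.35 through a median of 1.58 to 2.06 at 130 d and from 1.07 through 1.43 to 1.94 at 140 d. SLC25A33 rose by 0.90 ± 0.20 (SE, adjusted p = 0.00482) and SLC25A11, the oxoglutarate-malate exchanger, by 0.43 ± 0.14 (SE, adjusted p = 0.0488). SLC25A11 passed in 2 of 13 fits that left out 1 array, the fit without replicate 4 at 140 d (0.57) being one of them.

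For glycolysis and glucose transport 5 of 15 rose, with a median change of 0.23, where 7.38% of all named genes rose. Besides SLC2A4 the 5 were PYGL, a glycogen phosphorylase (0.77 ± 0.16, groups apart), PFKM (0.72 ± 0.23), ALDOA, an aldolase (0.56 ± 0.13), and GAPDH (0.50 ± 0.16), with adjusted p values from 0.000767 to 0.0341. Without replicate 4 this GAPDH probe was 0.41 and did not pass (adjusted p = 0.0573), while its second probe passed at 0.57 with all arrays and 0.50 without that array. LDHA, lactate dehydrogenase A, was -0.37 (adjusted p = 0.257), and the glucose transporters SLC2A1 and SLC2A3 were -0.08 and -0.02, none of which passed. In fatty acid oxidation 2 of 5 rose: LPL, which frees fatty acids from lipoproteins (0.79 ± 0.17, adjusted p = 0.00371), and CPT1B, which commits them to entry into mitochondria (0.61 ± 0.20, adjusted p = 0.0492). With each array left out in turn CPT1B passed in 1 of 13 fits, that without replicate 4 (0.83, adjusted p = 0.000283), where its level was 1.69, the lowest of the arm. PFKM lost its call in 9 of these fits (0.61 to 0.98) and DGAT1 in 9 (0.27 to 0.44). PPARGC1A, a coactivator of mitochondrial genes, was -0.0046 (adjusted p = 0.991). Of 10 genes of lipid storage 3 rose, LPL, PLIN1, a lipid droplet protein (0.48), and DGAT1, which makes triglyceride (0.36). Across these lists ATP5MC1, SLC25A4, SLC25A6, SLC25A33, SLC2A4, PYGL, ALDOA and LPL kept their calls with normexp.

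**Figure D3:**
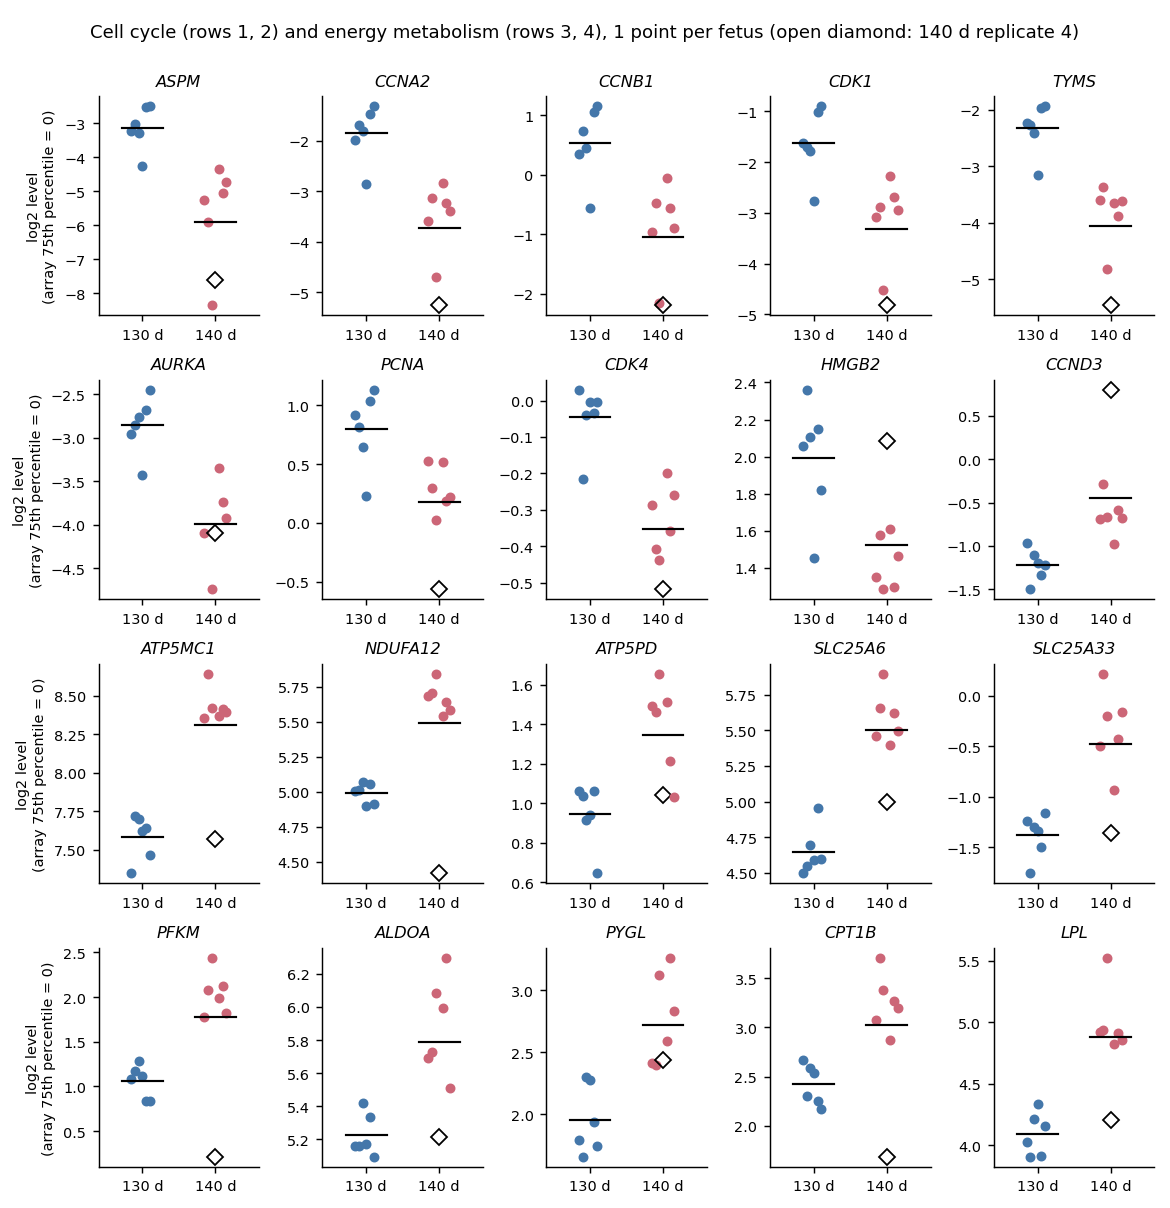
Levels of cell cycle genes (upper 10 panels) and of energy metabolism genes (lower 10 panels) that passed in the cortisol arm, as log2 intensity relative to the array's 75th percentile, 1 point per fetus at 130 d (n = 6) and 140 d (n = 7), with group means as bars. The open diamond, 140 d replicate 4, lies lowest of its group for TYMS (-5.46) and also for NDUFA12 (4.42), PFKM (0.21) and CPT1B (1.69).

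Genes that glucocorticoids are known to induce rose in part, where 7.38% of all named genes rose. Of the 8 such inducible genes measured 4 rose and none (0) fell, with a median change of 0.57, or 0.46 without replicate 4, when 3 rose. The 4 were NFKBIA and CEBPB, given above, TXNIP, an inhibitor of thioredoxin that limits glucose uptake, and NFIL3, a transcription repressor. TXNIP ran from 4.40 through a median of 4.89 to 5.12 at 130 d and from 4.61 through 5.45 to 6.87 at 140 d and rose by 0.90 ± 0.27 (SE, adjusted p = 0.0295). NFIL3 ran from -0.56 through a median of 0.15 to 0.28 at 130 d and from 0.12 through 0.63 to 1.23 at 140 d and rose by 0.65 ± 0.18 (SE, adjusted p = 0.015). For all 4 the highest level of the arm was that of replicate 4. TXNIP lost its call in 6 of 13 fits that lacked 1 array (0.71 to 1.08). With normexp only NFKBIA of the 4 kept its call. CEBPB was then 0.53 (adjusted p = 0.594), TXNIP 0.96 (adjusted p = 0.0716) and NFIL3 0.60 (adjusted p = 0.052). PER1, a clock gene with glucocorticoid response elements, was 0.48 ± 0.21 (adjusted p = 0.133) and PCK1, of gluconeogenesis, 0.43 (adjusted p = 0.543).

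Of 9 genes of corticosteroid action and metabolism, HSD11B1 rose and HSP90AA1, a chaperone that holds the unliganded receptor, fell. Over all named genes 14.8% passed. HSD11B1 ran from -2.99 through a median of -2.38 to -2.17 at 130 d and from -2.54 through -1.57 to -0.75 at 140 d, with overlap, and its second probe also passed. The receptor gene NR3C1 ran from -3.71 through a median of -3.46 to -3.17 at 130 d and from -4.09 through -3.44 to -2.88 at 140 d and its change was 0.01 ± 0.17 (SE, adjusted p = 0.986), with a sign that turned under several alternatives. HSD11B2 ran from -6.51 through a median of -6.21 to -5.30 at 130 d and from -5.59 through -5.10 to -4.09 at 140 d. It was above background on 3 of 6 younger and 7 of 7 older arrays, and its change of 1.11 ± 0.58 did not pass (adjusted p = 0.214). The mineralocorticoid receptor gene NR3C2 was -0.34 (adjusted p = 0.104). HSP90AA1 fell by 0.39 ± 0.13 (SE, adjusted p = 0.0419), a call lost in 8 of 13 fits that lacked 1 array (-0.47 to -0.29).

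The growth factor lists gave these counts, beside 14.8% of all named genes called. Of 12 in the insulin-like growth factor list, IGFBP2 alone passed (1 fell), and IGF2, the fetal growth factor, was -0.84 ± 0.40 (adjusted p = 0.162). In the TGF-beta and activin list 3 of 21 fell and none (0) rose, with a median of -0.18. These were INHBA, ACVR1, a type I receptor of the family, and SMAD2, which carries its signal to the nucleus. INHBA ran from -0.76 through a median of 0.27 to 0.75 at 130 d and from -3.50 through -2.06 to 0.58 at 140 d, and replicates 1 and 4 at 140 d stayed among the younger levels. ACVR1 ran from -1.55 through a median of -1.44 to -1.19 at 130 d and from -2.60 through -2.28 to -1.78 at 140 d, without overlap, and fell by 0.80 ± 0.13 (SE, adjusted p = 0.000266). SMAD2 ran from -0.75 through a median of -0.66 to -0.54 at 130 d and from -1.35 through -1.01 to -0.82 at 140 d, also apart, and fell by 0.39 ± 0.09 (SE, adjusted p = 0.00688). TGFB2, one of the ligands, was -0.74 (adjusted p = 0.0542) and passed without replicate 4 at -0.83 (adjusted p = 0.0281). In the list for growth of vessels and hypoxia 1 of 18 rose and 1 fell. FGF1, a growth factor for vessels, rose by 0.55 ± 0.16 (SE, adjusted p = 0.026), and NOS2, given above, fell. FLT1, a receptor for vascular growth factor, was 0.93 (adjusted p = 0.0649) on its brightest probe, while 2 of the 4 others rose (1.46, adjusted p = 0.00113, and 1.11, adjusted p = 0.0175). FGF1 lost its call in 4 of 13 fits that lacked 1 array (0.50 to 0.66). ACVR1 kept its call with normexp, and INHBA, SMAD2 and FGF1 did not.

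A few genes of protein folding fell and a few of protein turnover rose, where 7.38% of all named genes fell and 7.38% rose. In the list of heat shock and endoplasmic reticulum chaperones 3 of 9 fell, PDIA4, a disulfide isomerase (-0.96 ± 0.17, adjusted p = 0.000991), HSPA5, the main chaperone of that compartment (-0.69 ± 0.21, adjusted p = 0.0325), and HSP90AA1. CRYAB, a small heat shock protein abundant in heart muscle, was the 1 that rose (0.53 ± 0.14, adjusted p = 0.0145). Of 10 proteasome and ubiquitin genes 3 rose, PSMD4 (0.38), UBE2D2 (0.34) and PSMB7 (0.28), each by little. Among 24 genes of ribosomal proteins and translation the elongation factor EEF1A1 fell by 0.47 ± 0.10 (SE, adjusted p = 0.00208), which its 2 other probes did not share at the threshold, and the median of the list was 0.03. Of 10 apoptosis genes BCL2L1 and MCL1, both of which protect cells, rose. MTHFD2, a mitochondrial enzyme of folate metabolism, fell by 1.06 ± 0.33 (SE, adjusted p = 0.0322), and SOD2, which removes superoxide in mitochondria, rose by 0.63 ± 0.19 (SE, adjusted p = 0.0287). Leaving out each of the 13 arrays lost calls for HSPA5 in 8 (-0.87 to -0.59), PSMD4 in 6 (0.32 to 0.45), PSMB7 in 7 (0.25 to 0.35), UBE2D2 in 3 (0.27 to 0.42), MCL1 in 7 (0.35 to 0.53), MTHFD2 in 6 (-1.28 to -0.89) and SOD2 in 6 (0.57 to 0.70). CRYAB, PDIA4 and PSMD4 kept their calls with normexp.

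Contractile, ion transport and matrix genes gave the following counts, beside 14.8% of all named genes called. Of 11 sarcomere and cytoskeleton genes TPM1, a tropomyosin, and TUBA4A rose, TPM1 by 0.44 ± 0.10 (SE, adjusted p = 0.00375) with 1 younger spot left out as outlying. For MYH7 the brighter probe was 0.29 (adjusted p = 0.133) and the second passed at 0.53 (adjusted p = 0.0232). The change of MB was 0.19 (adjusted p = 0.462). Of 8 ion pumps, channels and adrenergic receptors ATP1B1, a subunit of the sodium pump, rose by 0.47 ± 0.12 (SE, adjusted p = 0.00889) without overlap of ages, and GJA1, the gap junction protein of ventricular muscle, was -0.55 (adjusted p = 0.0654) on its brightest probe. Of the 3 other GJA1 probes 2 passed, at -0.52 (adjusted p = 0.015, ages apart) and -0.39 (adjusted p = 0.0452). Among 19 genes of the extracellular matrix none passed (0) on its brightest probe, nor did any of 7 renin-angiotensin and natriuretic peptide genes (0) or 7 nuclear hormone receptors (0). Without replicate 4, matrix genes MMP14 (-0.58), TIMP1 (-0.89) and COL3A1 (-1.15) fell, and so did 2 of 6 fibroblast markers, COL3A1 and VIM (-0.66). For COL3A1, of the collagen fibres, 1 of the 3 other probes fell with all arrays too (-0.82, adjusted p = 0.0275). The summed level of the fibroblast markers was 7.53 to 7.88 at 130 d and 6.79 to 8.40 at 140 d, where replicate 4 was the highest.

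**Figure D4:**
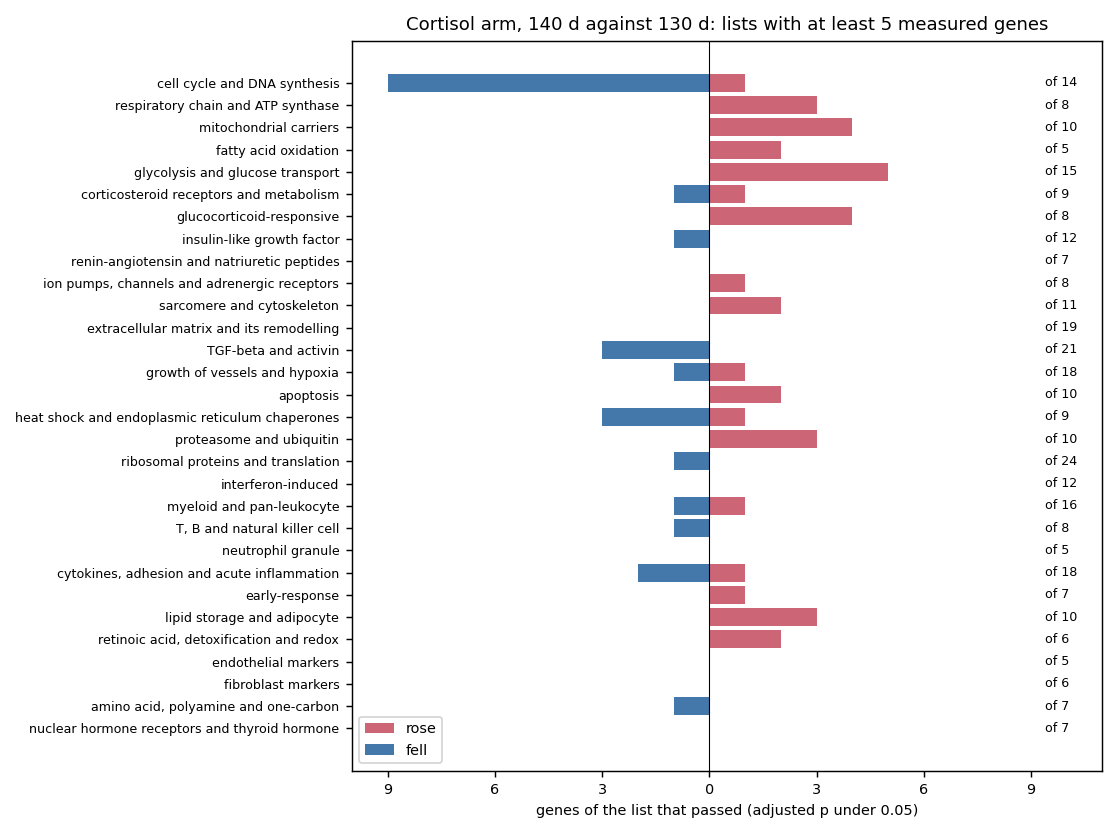
Genes that rose (right) and fell (left) at an adjusted p under 0.05 in the cortisol arm, for the gene lists with at least 5 measured genes; the number measured stands at the right. Cell cycle genes carried the most falls, 9 of 14, and glycolysis and glucose transport the most rises, 5 of 15; over all 840 named genes 7.38% rose and 7.38% fell.

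The lists of blood and immune cell genes gave these counts, again beside 14.8% of all named genes. Of 3 red blood cell markers HBBF fell, while HBB, adult beta-globin, was -1.35 (adjusted p = 0.133) and its second probe 0.69, and AHSP, the chaperone of alpha-globin, was -1.92 (adjusted p = 0.077) with a second probe that fell by 2.37 (adjusted p = 0.0366). Their summed level was 4.30 to 5.46 at 130 d and 0.67 to 5.08 at 140 d, with overlap, and the part of blood content in the fall of HBBF was not tested. TLR6, a receptor for bacterial lipopeptides, rose (0.46) and CD40, a costimulatory receptor, fell (-0.93) among 16 myeloid and leukocyte genes, whose summed level was 1.69 to 2.11 and 1.66 to 2.82. CD247, a signalling chain of the T cell receptor, fell by 0.72 ± 0.20 (SE, adjusted p = 0.0199) in a list of 8, and its groups did not overlap. Of 18 cytokine and adhesion genes IL1A and TNF, both inflammatory cytokines, fell, TNF by 1.33 ± 0.36 (SE, adjusted p = 0.0163) with 5 of 7 older arrays above background, and NFKBIA rose. None (0) of 12 interferon-induced genes, 5 neutrophil granule genes or 3 antigen presentation genes passed. MYC, a growth-promoting transcription factor, was the 1 of 7 early-response genes that rose (0.63), and it passed in 3 of the 13 fits that lacked an array. The summed level of that list was 4.31 to 4.72 at 130 d and 4.57 to 5.80 at 140 d, with replicate 4 at the top. Leaving out each of the 13 arrays lost calls for TLR6 in 8 (0.41 to 0.57), CD40 in 4 (-1.03 to -0.79) and CD247 in 1 (-0.80 to -0.64). With normexp HBBF and NFKBIA kept their calls. TLR6 (0.13), CD40 (-0.61), CD247 (-0.37), TNF (-0.56), IL1A (-0.25) and MYC (0.53) did not.

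The age change was then set beside that of the control arm, which shares no fetus with it. In the control arm 2442 probes passed (19.1%), 1248 higher (9.77%) and 1194 lower (9.35%). No probe (0) passed limma's test of the difference between the arms' age changes, where 742 (5.81%) had an unadjusted p under 0.05 and the smallest adjusted p was 0.203. Leaving out control replicate 6 at 140 d gave 2 calls. Of the 65 named genes called in the cortisol arm and followed here, 64 changed with the same sign in the control arm and 44 were also called there. Of all 840 named genes 181 (21.5%) were called in the control arm. The 65 were picked by size of change or from the lists, and shared signs over all called probes were not counted. For cell cycle genes 9 fell in the cortisol arm and 5 in the control arm, with medians of -0.54 and -0.53. For the respiratory chain 3 and 5 of 8 rose, and for glycolysis 5 and 8 of 15. Control replicate 2 at 130 d read -5.04 for CCNA2 and -4.74 for CDK1, the lowest of the control arm. The other younger controls read -1.59 to -0.84 and -1.41 to -0.68. Without that array 2823 probes passed in the control arm, and the count of cell cycle falls there was not computed without it. HSD11B1 changed by 0.94 and 0.95, SLC25A4 by 0.83 and 0.86, and IGFBP2 by -1.70 and -1.84 in the cortisol and control arms.

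Some genes had a larger measured age change in one arm, but none passed the test of the difference over all probes, so no difference between arms was established. NFKBIA changed by 1.30 in the cortisol arm and 0.34 in the control arm (unadjusted p of the difference = 0.0271, adjusted p = 0.748). NFIL3 changed by 0.65 and 0.08, TXNIP by 0.90 and 0.10, and MYC by 0.63 and -0.08, with unadjusted p values of 0.0273, 0.0468 and 0.0235. Without replicate 4 at 140 d the cortisol arm changes were 1.03 for NFKBIA, 0.55 for NFIL3, 0.71 for TXNIP and 0.50 for MYC. TXNIP and MYC then lost their calls in that arm. MYC was the gene whose sign differed. None (0) of the 8 glucocorticoid-responsive genes passed in the control arm, whose median change was 0.09. For the interferon-induced list the count that fell was 0 of 12 in the cortisol arm and 7 of 12 in the control arm, with medians of 0.01 and -0.94. Counts called in each arm do not test a difference between arms. The lowest p of the difference in the interferon-induced list, chosen after its value was seen, was that of IRF1, a transcription factor of the interferon response. It changed by 0.45 and -1.66 (unadjusted p = 0.000535, adjusted p = 0.258). CXCL10, an interferon-induced chemokine, had the larger difference, at -1.71 and -4.49 (unadjusted p = 0.0423, adjusted p = 0.814), and was above background on 5 of 7 older cortisol arrays. LEF1, ALB and IL1A have only a bound in the cortisol arm, and their arms are not compared.

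**Figure D5:**
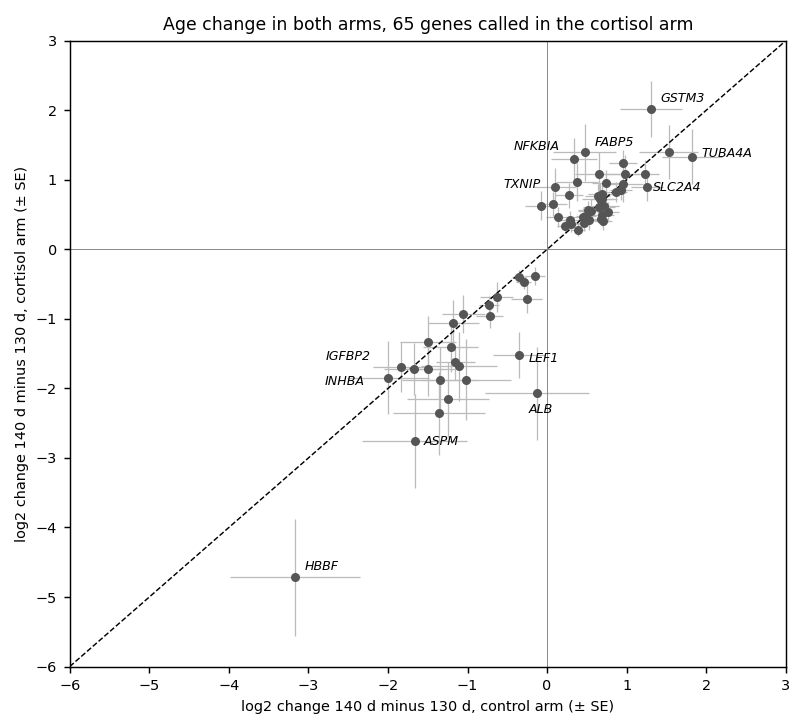
Log2 change from 130 d to 140 d in the control arm (horizontal, 8 against 6 fetuses) and the cortisol arm (vertical, 7 against 6) for the 65 genes called in the cortisol arm, with SE bars; the dashed line marks equal change. All but 1 gene share their sign between arms; NFKBIA (1.30 against 0.34) lies away from the line, none (0) passed the test of the difference, and LEF1, ALB and IL1A are drawn at measured values although only a bound holds in the cortisol arm.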

How the data were processed

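RNA of the septum of 27 fetuses was hybridised to 1-colour Agilent arrays with 15008 sheep probes, 1 array per fetus. The deposited intensity was the processed signal of Agilent Feature Extraction 10.1.1.1, corrected for background by the scanner software, per the file headers. The deposited log2 values of the series table differed from log2 intensity by a constant per array and were used as an alternative. Control spots and spots called outlying were left out, repeat spots were averaged per probe, and log2 intensity was scaled to the array's 75th percentile.

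limma 3.58.1 in R 4.3.3 fitted 4 group means to the 12769 probes well above background on at least 6 arrays, with Benjamini-Hochberg adjustment over all of them and 2-sided tests. 82 of these probes lacked a value on some array. Fetuses came from separate ewes, apart from 1 set of control twins that the labels do not assign to arrays, and p-values measure the spread among these fetuses. The number of arrays limits precision. On simulated data for the cortisol arm with 12769 probes, 17 of 50 changes of 0.5 log2, 38 of 50 of 1 and 48 of 50 of 2 were recovered, with 6 false calls. The simulated noise was normal, independent between arrays and of equal spread in all groups, and no array stood apart. Few probes were changed there, with 159 calls in all against 1718 in the real data. These rates therefore need not hold for the real arrays.

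Names came from the files and from a RefSeq gene table, and 1298 tested probes (10.2%) had one, for 840 genes. A gene was read by its tested probe with the highest mean. Named genes were the 12 largest called changes per direction, those entering when replicate 4 at 140 d was left out, called list members up to 4 per list and direction, and NR3C1, HSD11B1 and HSD11B2. Others that complete a list, and single genes marked in the text, were chosen after their values were seen. Members, lists and rules were chosen with earlier results of these data known. Alternatives covered background correction, scaling, filters, array weights, slide, replicate number and leaving out each array.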

Additional observations from a re-analysis of the deposited data

Results flagged for a closer look

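In 16 of 141 checks of a cortisol group, 1 sample lay far from the others of its group. Chance alone marks about 1 in 20 groups. Of the 16, 10 were on replicate 4 at 140 d, 1 on another array of that group, and 5 in the group at 130 d.

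Replicate 4 at 140 d had a median absolute difference from the other arrays of its group of 0.471, next to 0.242. It was far below the rest for TUBA4A (-1.04, next 0.96), PFKM (0.21, next 1.77), ATP5MC1 (7.57, next 8.36), NDUFA12 (4.42, next 5.54), SLC25A11 (2.74, next 3.63), CPT1B (1.69, next 2.88) and PSMB7 (4.33, next 4.79). It was far above for PRSS23 (2.24, next 0.72) and CCND3 (0.79, next -0.29). Replicate 6 at 140 d had 18 outlying spots, next to 11.

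At 130 d, replicate 6 was far below the rest for NFKBIA (0.50, next 0.97) and ATP5PD (0.65, next 0.92), replicate 3 for ATP1B1 (4.86, next 5.42) and replicate 2 for DGAT1 (-2.41, next -2.02). Replicate 4 was far above for ALB (-0.24, next -5.03).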

How the results depend on the processing

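Of 1718 probes called in the cortisol arm and 2442 in the control arm, 339 and 537 were called with normexp. Array quality weights gave 2969 in the cortisol arm. Within single slides that held both ages, where 3 or 4 arrays of the arm were compared, 1, 0 and 29 passed in the cortisol arm and 3, 5 and 2 in the control arm. With a replicate block 996 and 1517 passed. Replicate numbers did not pair the arrays, since same-numbered arrays correlated from -0.02 to 0.15 in the cortisol arm and -0.17 to 0.05 in the control arm, and 1 of 6 cortisol numbers matched best with itself. Leaving out 1 array gave 1285 to 2418 in the cortisol arm, 1650 to 2823 in the control arm, and 0 to 2 for the difference between arms, with 2 without control replicate 6 at 140 d. Other alternatives stayed within 1.5 times. Of 65 named calls, 20 kept their call with normexp, 40 when only the cortisol arrays were fitted, 41 with the replicate block and 56 with slide as a fixed block. Signs turned on slide 3 alone for PLIN5 (-0.034), PFKM (-0.10), NDUFA12 (-0.0053), SLC25A11 (-0.080), CPT1B (-0.28) and DGAT1 (-0.067), where replicate 4 was 1 of the 2 older arrays, and on slide 4 alone for HSP90AA1 (0.30), HSPA5 (0.57) and TLR6 (-0.34). NR3C1, near 0 at 0.01, read -0.11 with normexp, -0.054 with slide as a fixed block, -0.37 and -0.43 on slides 2 and 4, -0.056 with the replicate block and -0.086 to 0.12 with 1 array left out. The cause of these changes was not tested. A scan-day block was not run, since all arrays had 1 scan day. Probes below background on older arrays have only a bound there.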
